A study of Mus musculus with 13 samples.

Results

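A group of heat shock protein and chaperone genes was followed across aortic endothelial cells (ECs) and heart tissue of mice with and without the heme oxygenase gene *Hmox2*. The genes were taken by name as *Hspa1a*, *Hspa1b*, *Hsp90aa1*, *Hspb1*, *Dnajb1*, *Hsph1*, *Hspa8*, *Hspd1*, *Hspe1* and *Cryab*, which are 10 of the 36109 genes listed. The rule that lists them uses no measured value, but they were chosen with earlier results of these data known. *Hspa1a* and *Hspa1b* were added together because their transcripts are nearly identical, which left 9 entries, and all 9 passed the filter on low counts in every comparison. The 13 RNA sequencing libraries came from aortic ECs of *Hmox2*+/+ (n = 3) and *Hmox2*-/- (n = 3) mice and from whole heart of *Hmox2*+/+ (n = 4) and *Hmox2*-/- (n = 3) mice. All mice breathed room air, the *Hmox2*+/+ mice were littermate controls, and the sources used here name no driver that limits the *Hmox2* deletion to a cell type. The study describes the sequenced mice as young, their sex was not given in the sources used here, and the labels do not tie an EC library to the heart of the same mouse. Libraries are treated as separate samples of their group, and the p-values measure only the spread between these libraries.

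Chaperones hold unfolded proteins in a soluble state and help them fold or refold. HSP70 proteins bind exposed hydrophobic stretches in cycles of ATP hydrolysis, J-domain proteins such as DNAJB1 bring them clients, HSP110 proteins such as HSPH1 exchange their nucleotide, and HSP90 acts later on kinases and steroid receptors. Small heat shock proteins such as HSPB1 and CRYAB hold clients without ATP and are abundant in muscle, while HSPD1 and HSPE1 form the folding chamber of mitochondria. On proteotoxic stress the transcription factor HSF1 binds repeats of the unit nGAAn, the heat shock element, and drives *Hspa1a*, *Hspa1b*, *Dnajb1*, *Hsph1* and other genes, whereas *Hspa8* is the HSP70 that cells make at all times.

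A few sequences help in reading the values. The first is a 57-base stretch of *Hspa8* beside the same stretch of *Gm15459*, a processed pseudogene on chromosome 5 whose 1941 bases match *Hspa8* at 1936 positions (99.7%). The capital marks the single base at which the stretches differ, C784T in the count from 1 at the 5′ end of *Hspa8* transcript ENSMUST00000015800, and it lies in exon 4.
*Hspa8*, GRCm39 chr9:40714035-40714091, plus strand: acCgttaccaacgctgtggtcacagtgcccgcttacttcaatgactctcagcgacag
*Gm15459*, GRCm39 chr5:5833088-5833144, minus strand: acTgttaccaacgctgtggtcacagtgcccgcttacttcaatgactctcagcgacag

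The second set is one stretch of 80 bases from the promoters of *Hspa1a* and *Hspa1b*, which is the same in both genes and shows how alike these copies are. The capitals mark a pair of heat shock units, written GAANNTTC.
*Hspa1a*, GRCm38.p6 chr17:34972206-34972285, minus strand: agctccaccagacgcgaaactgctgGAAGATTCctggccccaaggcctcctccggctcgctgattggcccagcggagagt
*Hspa1b*, GRCm38.p6 chr17:34959288-34959367, minus strand: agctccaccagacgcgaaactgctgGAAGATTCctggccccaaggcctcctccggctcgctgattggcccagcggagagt

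The third is the stretch between *Hspd1* and *Hspe1*, neighbours that are read in opposite directions. The capitals mark overlapping runs of 3 units, TTCNNGAANNTTC and GAANNTTCNNGAA.
*Hspe1*, GRCm38.p6 chr1:55088053-55088082, plus strand: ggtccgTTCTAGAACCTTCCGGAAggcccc

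The promoters, 250 bases before to 50 after each start site, came from RefSeq on build GRCm38.p6 and were available for 7 of the 10 genes. On either strand, a pair of units (GAANNTTC or TTCNNGAA) was present in 6 of the 7, against 15.1% of all 32851 promoters, and a run of 3 in 3 of the 7 (*Hspd1*, *Hspe1* and *Hsph1*), against 0.603%. Some genes have several promoter entries. A gene was counted when any of its entries matched, whereas the percentages are shares of single entries. Each run of 3 also contains pairs, and *Hspd1* and *Hspe1* share theirs. The promoters of *Hspa1a* and *Hspa1b* were identical at 247 of 250 bases before the start site. These are matches of letters and not sites shown to be bound.

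Between 26067147 and 31619776 estimated counts were listed for 12 of the libraries, and 7268626 for *Hmox2*+/+ heart 1. *Hmox2* itself held 63.95 to 76.19 counts per 1000000 (CPM) in *Hmox2*+/+ and 12.63 to 14.77 in *Hmox2*-/- ECs, and 37.33 to 42.48 against 7.54 to 8.91 in heart. Its log2 fold change was -2.34 in ECs (adjusted p = 1.30e-04) and -2.30 in heart (adjusted p = 1.56e-07 with edgeR). In the deposited transcripts per 1000000 (TPM) it held 51.31 to 61.62 against 18.96 to 32.05 in ECs. In heart it held 25.86 to 34.43 against 15.93 to 18.46 TPM, so the drop was smaller in this unit. Of the 31-base sequence words of *Hmox2*, 73.4% also occur in other genes. The EC libraries carried markers of other cells as well as endothelial ones. Summed over 8 smooth muscle markers, *Hmox2*+/+ ECs held 6641, 3389 and 5251 CPM and *Hmox2*-/- ECs 3703, 1201 and 1093. Summed over 12 cardiomyocyte markers, they held 135.2, 538.6 and 185.5 against 10.95, 11.78 and 13.6 CPM, and 10 endothelial markers held 3131 to 4557 against 5510 to 6724. Of these endothelial markers 5 were called higher and 1 lower (*Kdr*, log2 fold change -0.58) in *Hmox2*-/- ECs. The 8 adipocyte markers summed to 5722 to 8800 CPM against 7435 to 7867. In every EC library that was above the endothelial sum. The 7 fibroblast markers summed to 3118 to 5586 against 6844 to 7525 CPM. *Hmox2*-/- EC libraries 2 and 3 also stood apart from library 1 in *Ddx3y*, a Y-linked gene, with 1.04 and 0.92 CPM against 86.4. The 3 *Hmox2*+/+ EC libraries held 61.7 to 66.8. In *Hmox2*-/- EC libraries 2 and 3 a difference in sex thus cannot be told apart from genotype. Its part in the EC results was not tested. In heart the 6 erythroid markers summed to 182.9 to 341.2 CPM in *Hmox2*+/+ and 887.4 to 1456 in *Hmox2*-/- libraries, and the 10 leukocyte markers to 116.1 to 174.6 against 200.2 to 352.6. Of the 7 leukocyte markers tested there 4 were called higher and 0 lower, while *Ptprc* changed by -0.61 on the log2 scale (adjusted p = 0.0522 with edgeR). The 12 cardiomyocyte markers summed to 55870 to 60910 against 58160 to 63690 CPM, with 5 called higher and 1 lower. Mitochondrially encoded genes took 37.64 to 44.29% of the estimated counts in *Hmox2*+/+ and 22.55 to 27.23% in *Hmox2*-/- hearts. The part of these differences in the heart results was not tested. A heart fit with the mitochondrially encoded genes left out also called 3 entries. That fit leaves the erythroid and leukocyte differences in place and does not test any of these differences. In these bulk samples, fewer cells of a type and less RNA per cell cannot be told apart.

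In aortic ECs, 3 of the 9 entries differed between genotypes at an adjusted p of at most 0.05 (edgeR quasi-likelihood F-test, adjusted over all genes), where 18.1% of the 15300 genes tested did. *Hspa8* rose, in a direction that 10% of all genes took, and *Hspa1a* plus *Hspa1b* and *Cryab* fell, in a direction that 8.07% took. These 3 entries were also the ones in which every *Hmox2*-/- library lay on 1 side of every *Hmox2*+/+ library, which was so for 40.7% of all genes. The summed *Hspa1a* and *Hspa1b* also changed at least 2-fold, as 9.27% of all genes did with an adjusted p of at most 0.05. In heart, 3 of the 9 were called, *Hspa8*, *Hspe1* and *Cryab*, each of them higher, at a background of 33.4% of 13815 genes, with 17.2% higher and 16.2% lower. In heart the genotypes were fully apart in these 3, against 40.4% of all genes, and *Hspa8* alone changed at least 2-fold, against 6.71%. The number of entries called in heart is thus at the level of all genes, and the median change of the 9 was -0.24 in ECs and 0.29 in heart on the log2 scale, beside -0.02 and -0.01 for all genes tested.

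**Figure D1:**
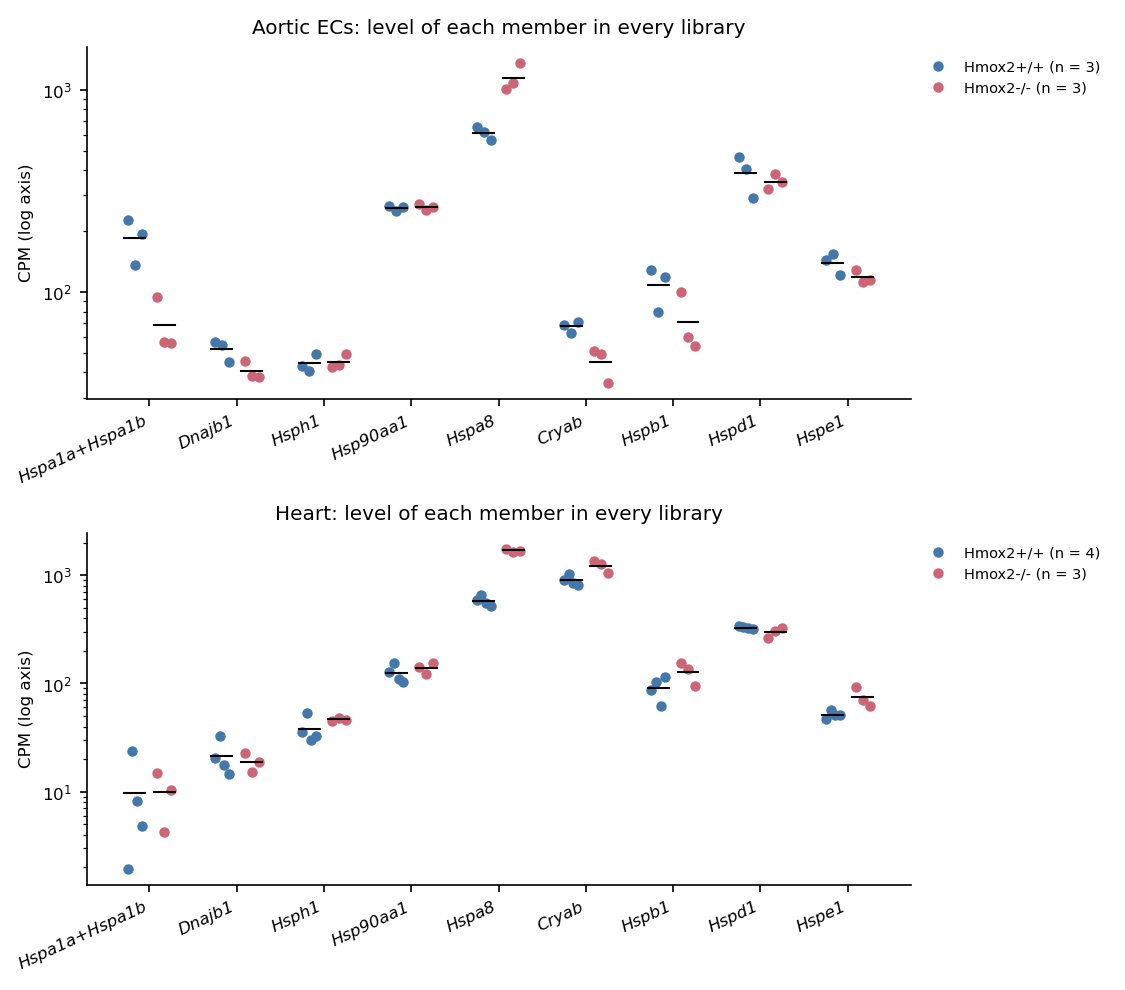
CPM of the 9 entries in each library (log axis), by tissue and genotype; each point is one library and each bar the group mean. The summed *Hspa1a* and *Hspa1b* drop in *Hmox2*-/- ECs (55.9 to 94.58, below 135.3 to 227.3 in *Hmox2*+/+) and scatter from 1.93 to 23.69 in *Hmox2*+/+ hearts, while *Hspa8* is higher in every *Hmox2*-/- library of both tissues.

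The largest drop among the entries in ECs was that of the stress-inducible HSP70 genes. *Hspa1a* (chr17:35188166-35191132) and *Hspa1b* (chr17:35175412-35178214), both on the minus strand of GRCm39, encode the HSP70 that cells make on heat and other stress. Summed, they held 227.3, 135.3 and 194.2 CPM in *Hmox2*+/+ ECs and 94.58, 56.26 and 55.9 in *Hmox2*-/- ECs. Every *Hmox2*-/- library lay below every *Hmox2*+/+ library, and library 1 was the highest of both groups. The mean was 185.6 ± 46.6 (SD, n = 3) against 68.91 ± 22.23 (SD, n = 3), a log2 fold change of -1.43 (SE 0.27, 95% interval -2.05 to -0.81, adjusted p = 0.0145 with edgeR). The exact two-sided permutation test gave p = 0.1, the smallest that 3 against 3 libraries allow. The call rested on libraries 2 and 3 of *Hmox2*-/- ECs, which held little *Ddx3y*. Without library 2 the change was -1.30 (adjusted p = 0.0531 with edgeR), and without library 3 it was -1.29 (adjusted p = 0.0680). With library 1 alone it was -0.97. The part of sex in this drop was not tested.

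Listed one by one, both genes were lower in *Hmox2*-/- ECs. *Hspa1a* held 89.18 ± 23.76 CPM (SD, n = 3) in *Hmox2*+/+ and 33.75 ± 12.57 in *Hmox2*-/- ECs, and *Hspa1b* held 96.43 ± 22.82 and 35.16 ± 9.66. Their transcripts matched at 2181 of 2200 aligned positions (99.1%), so the split between them is uncertain and only the sum was tested. The smooth muscle markers ranked the 3 *Hmox2*+/+ EC libraries in the same order as *Hspa1a* plus *Hspa1b* did, with library 1 highest and library 2 lowest, and their part in the difference was not tested.

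In heart the same genes were scarce and uneven. The sum was 1.93, 23.69, 8.11 and 4.76 CPM in *Hmox2*+/+ hearts, which came from 13, 684, 213 and 134 estimated counts, and 15.01, 4.19 and 10.37 in *Hmox2*-/- hearts. The genotypes overlapped fully, and the highest *Hmox2*+/+ heart held 12.3 times the lowest, the widest spread within a group of any entry. The log2 fold change was -0.05 with a 95% interval of -1.35 to 1.25 (adjusted p = 0.956 with edgeR), and a rise or a fall of up to about the size seen in ECs lay inside that interval. Leaving out 1 heart at a time moved the value between -0.50 and 0.89, with its highest value when *Hmox2*+/+ heart 2 was left out.

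The other stress-inducible genes did not share the drop of *Hspa1a* and *Hspa1b* at the adjusted threshold. *Dnajb1* (chr8:84334811-84339820), the J-domain partner of HSP70, held 56.79, 54.86 and 44.87 CPM in *Hmox2*+/+ ECs and 45.46, 38.45 and 37.92 in *Hmox2*-/- ECs. Library 1 of *Hmox2*-/- lay just above the lowest control, and the change of -0.36 (95% interval -0.67 to -0.05) had an adjusted p of 0.10 with edgeR. *Hsph1* (chr5:149537636-149560156), an HSP110, held 43.04, 40.85 and 49.44 CPM against 42.5, 43.41 and 49.07 and the 95% interval of its log2 fold change ran from -0.26 to 0.30. *Hsp90aa1* (chr12:110656842-110669166), the inducible HSP90, was the steadiest of the 9 in ECs, with 266.3, 251 and 262.9 against 273.1, 253.5 and 262.3 CPM and a 95% interval of -0.25 to 0.29 (adjusted p = 0.932 with edgeR).

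In heart, *Dnajb1* held 20.65, 32.79, 17.51 and 14.48 CPM in *Hmox2*+/+ and 22.8, 15.21 and 18.82 in *Hmox2*-/- libraries. *Hsph1* held 35.84, 53.12, 29.78 and 32.71 against 45.19, 48.15 and 46.16. *Hsp90aa1* held 127.1, 154.6, 110.9 and 102.8 against 140.6, 123.3 and 155.4. In each of the 3 genes *Hmox2*+/+ heart 2 was the highest of its group and the genotypes overlapped, with adjusted p-values of 0.601, 0.205 and 0.362 (edgeR). *Hmox2*+/+ heart 2 was the highest of its group for 7 of the 9 entries, and without it *Hsph1* was called higher in *Hmox2*-/- heart (log2 fold change 0.52, adjusted p = 0.00936 with edgeR).

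**Figure D2:**
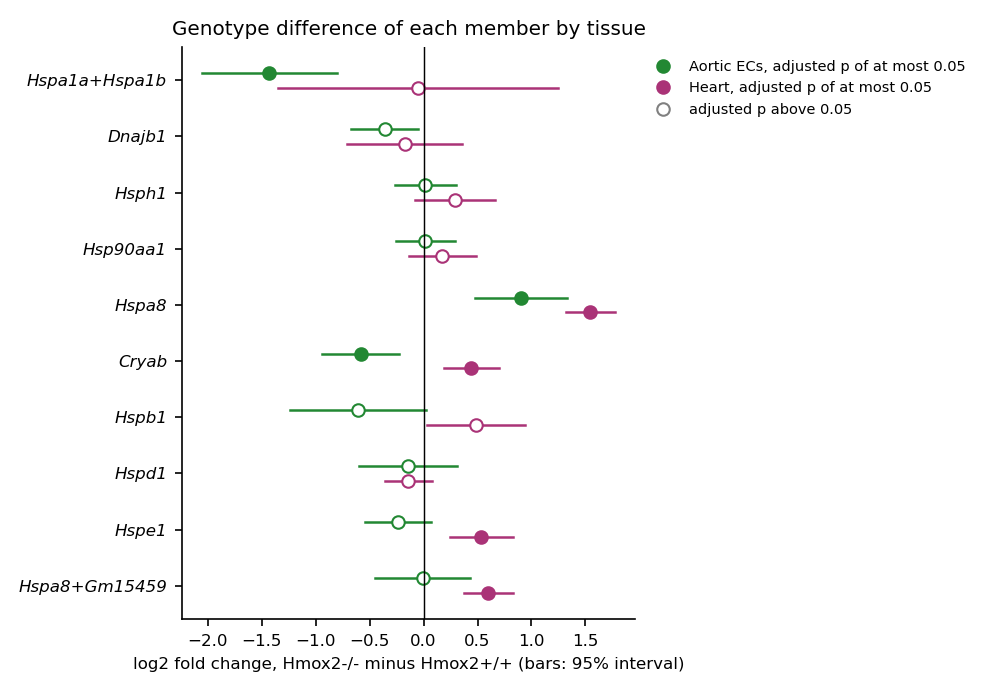
Log2 fold change (*Hmox2*-/- over *Hmox2*+/+) of the 9 entries in ECs (green) and heart (purple) from edgeR; bars are 95% intervals, filled points have an adjusted p of at most 0.05, and *Hspa8* is drawn also with *Gm15459* and its other pseudogene copies summed (row *Hspa8+Gm15459*). In ECs *Hspa1a* plus *Hspa1b* stands lowest at -1.43, in heart *Hspa8* stands highest at 1.55, and adding these copies takes *Hspa8* to -0.01 in ECs and 0.60 in heart.

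*Hspa8* (chr9:40711630-40731039, plus strand of GRCm39), the constitutive HSP70, was the one entry that was called higher in both tissues as listed. In ECs it held 656.3, 620.7 and 565.6 CPM in *Hmox2*+/+ and 1011, 1074.2 and 1356 in *Hmox2*-/- libraries, a log2 fold change of 0.90 (SE 0.18, 95% interval 0.48 to 1.33, adjusted p = 0.0185 with edgeR). In heart it held 590.4, 658.6, 558.5 and 519.4 against 1753, 1657 and 1687 CPM, a change of 1.55 (SE 0.10, 95% interval 1.32 to 1.77, adjusted p = 2.75e-06 with edgeR). No library of either genotype overlapped with the other in either tissue, and the exact two-sided permutation test gave p = 0.0286 in heart, the smallest that 4 against 3 libraries allow.

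The pseudogene *Gm15459* moved the opposite way over the same libraries. It held 585.2, 528.8 and 498.9 CPM in *Hmox2*+/+ ECs, and the *Hmox2*-/- ECs held 21, 0 and 14 estimated counts, or at most 0.74 CPM. *Hmox2*+/+ hearts held 533.2, 608.9, 533.2 and 479.8 CPM and *Hmox2*-/- hearts at most 0.47. It was therefore present at 479.8 CPM or more in each *Hmox2*+/+ library and nearly missing from each *Hmox2*-/- library of both tissues. With *Gm15459* added, *Hspa8* held 1242, 1150 and 1064 CPM in *Hmox2*+/+ ECs and 1012, 1074.2 and 1357 in *Hmox2*-/- ECs. These overlap. The fit added *Gm15459* together with every other pseudogene that has at least 20% of its 31-base words in *Hspa8*. With these copies summed the change in estimated counts was -0.01 (95% interval -0.45 to 0.44, adjusted p = 0.984 with edgeR). In heart the sum was 1124, 1268, 1092 and 999.1 against 1754, 1657 and 1688 CPM. The genotypes stayed apart there, and with copies summed the change was smaller, at 0.60 (SE 0.10, 95% interval 0.38 to 0.83, adjusted p = 0.00198 with edgeR).

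The transcripts of *Hspa8* exchanged places as well. ENSMUST00000015800, which carries the 57-base stretch printed above, held 1.11 to 2.06 transcripts per 1000000 (TPM) in *Hmox2*+/+ ECs and 446.7 to 668.8 in *Hmox2*-/- ECs, and 0.72 to 3.04 against 714.7 to 918.4 TPM in heart. ENSMUST00000117557 held 264.8 to 318 TPM in *Hmox2*+/+ ECs and 0.004 to 17.84 in *Hmox2*-/- ECs, and 208.7 to 305.2 against 10.05 to 158.9 in heart. In GENCODE M39 it has 2337 bases and lacks that stretch. The version quantified was listed at 2019 bases, and how else its sequence differed was not examined. Another transcript, ENSMUST00000153847, was listed at 145 to 200.5 TPM in *Hmox2*+/+ ECs and 86.2 to 188.8 in *Hmox2*+/+ heart, and at 0 in every *Hmox2*-/- library. In TPM, *Hspa8* plus *Gm15459* held 703.5, 864.1 and 827.6 in *Hmox2*+/+ ECs and 510.9, 449.9 and 672.5 in *Hmox2*-/- ECs. The sum was thus lower in every *Hmox2*-/- EC library in TPM, whereas it overlapped in CPM. In heart it was 670.6, 850.3, 602.1 and 546.6 against 875.7, 850.4 and 930.5 TPM, barely apart. The pseudogene differs from *Hspa8* at 5 positions, G484A, C784T, C919T, G1592A and C1810T, of which C784T alone lies in the stretch. Of the 1911 overlapping words into which the pseudogene's sequence was cut, 1756 also occur in the 3 *Hspa8* transcripts. Which base the reads carried at these positions was not tested, since the reads were not used here.

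**Figure D3:**
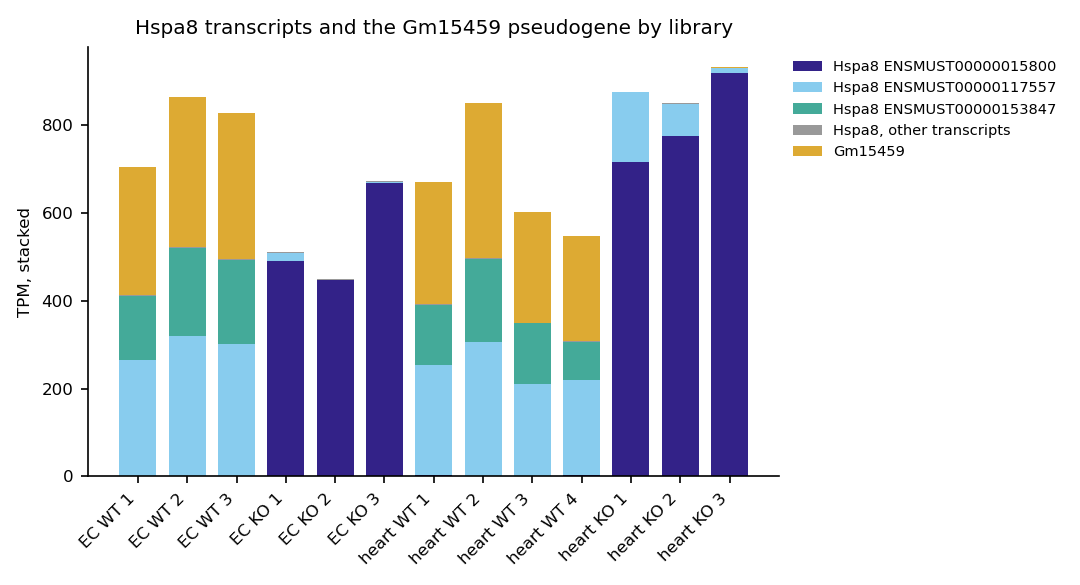
TPM of 3 *Hspa8* transcripts and of *Gm15459* in each of the 13 libraries, stacked bars from 0. In the *Hmox2*+/+ bars ENSMUST00000117557, ENSMUST00000153847 and *Gm15459* fill the height, and in the *Hmox2*-/- bars ENSMUST00000015800 holds 446.7 to 918.4 TPM with *Gm15459* below 0.5.

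*Cryab* fell in ECs and rose in heart. This gene (chr9:50651859-50668567) encodes a small heat shock protein that guards desmin and other filaments of muscle cells. It held 68.9, 62.95 and 71.21 CPM in *Hmox2*+/+ ECs and 50.78, 49.31 and 35.5 in *Hmox2*-/- ECs. All *Hmox2*-/- libraries were lower, by -0.58 on the log2 scale (SE 0.15, 95% interval -0.94 to -0.22, adjusted p = 0.0394 with edgeR). That call was lost whichever of the 6 EC libraries was left out (adjusted p = 0.0546 to 0.101). In heart, *Cryab* held 912.8, 1024, 857.4 and 822.2 CPM in *Hmox2*+/+ and 1346, 1277 and 1056.3 in *Hmox2*-/- libraries, and all *Hmox2*-/- hearts were higher. The change was 0.44 (SE 0.12, 95% interval 0.18 to 0.70, adjusted p = 0.0146 with edgeR). It was -0.01 (adjusted p = 0.949) once the fit took out each library's trend with gene length and GC content.

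*Hspb1* (chr5:135916760-135918417), a small heat shock protein that protects actin filaments, held 128.3, 79.2 and 118 CPM in *Hmox2*+/+ ECs and 99.59, 59.57 and 54.32 in *Hmox2*-/- ECs, which overlap. Across all 6 EC libraries its order was that of the summed smooth muscle markers, and the part of smooth muscle in its level was not tested. In heart it held 87.14, 102.4, 61.35 and 114.9 against 154.6, 135.9 and 94.15 CPM, again with overlap. Neither change passed the test, at -0.61 (adjusted p = 0.152) in ECs and 0.49 (adjusted p = 0.0902) in heart with edgeR. Each side was close to the threshold: without *Hmox2*-/- EC 1 the EC change was -0.93 (adjusted p = 0.0497), and without *Hmox2*-/- heart 3 the heart change was 0.67 (adjusted p = 0.0164).

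Of the mitochondrial pair *Hspe1* rose in heart. *Hspe1* (chr1:55127260-55130476), the lid of the mitochondrial chaperonin, held 46.99, 57.48, 50.62 and 51.54 CPM in *Hmox2*+/+ and 92.37, 70.77 and 62.05 in *Hmox2*-/- hearts. All 3 *Hmox2*-/- hearts were higher, with heart 1 well above the others, and the change was 0.53 (SE 0.13, 95% interval 0.25 to 0.82, adjusted p = 0.0110 with edgeR). With each library's trend with length and GC content taken out it was 0.06 (adjusted p = 0.618). *Hspd1* (chr1:55116989-55171038), the barrel, held 338.2, 336.5, 325.2 and 317.5 CPM against 262, 308 and 325.1. It was the most even entry among *Hmox2*+/+ hearts, with the highest 1.07 times the lowest, and its change of -0.14 had a 95% interval of -0.36 to 0.07 (adjusted p = 0.287 with edgeR).

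In ECs neither gene was called. *Hspe1* held 143.6, 154 and 121.5 CPM in *Hmox2*+/+ and 128.6, 112.3 and 114.6 in *Hmox2*-/- libraries, a change of -0.24 (adjusted p = 0.231 with edgeR). *Hspd1* held 467.3, 405.8 and 292.4 against 321.6, 383.5 and 348.9 CPM, a change of -0.15 (adjusted p = 0.622 with edgeR). The *Hmox2*-/- values of *Hspd1* fell within the range of the controls.

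Whether the effect of genotype differed between tissues was tested with an interaction term over all 13 libraries. It was called for 4 of the 9 entries, each with a higher fold change in heart than in ECs, where 28.8% of the 15937 genes tested were called, 16.2% with a higher and 12.7% with a lower value in heart. The difference in log2 fold change was 1.13 for *Hspb1* (SE 0.37, adjusted p = 0.0362 with edgeR) and 1.06 for *Cryab* (SE 0.23, adjusted p = 0.00413). It was 0.81 for *Hspe1* (SE 0.20, adjusted p = 0.00798) and 0.69 for *Hspa8* (SE 0.21, adjusted p = 0.0249). For *Hspa8* with *Gm15459* and its other pseudogene copies summed it was 0.65 (adjusted p = 0.0352 with edgeR). The difference for *Hspa1a* plus *Hspa1b* was 1.40 (SE 0.79, 95% interval -0.28 to 3.09, adjusted p = 0.197 with edgeR), and without *Hmox2*+/+ heart 2 it was 2.35 (adjusted p = 0.0155). All 9 differences were above 0, with a median of 0.69 beside 0.03 for all genes tested. None of the 4 was called when the length and GC trend was taken out, or with *Hmox2*-/- EC 1 as the sole *Hmox2*-/- EC library.

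**Figure D4:**
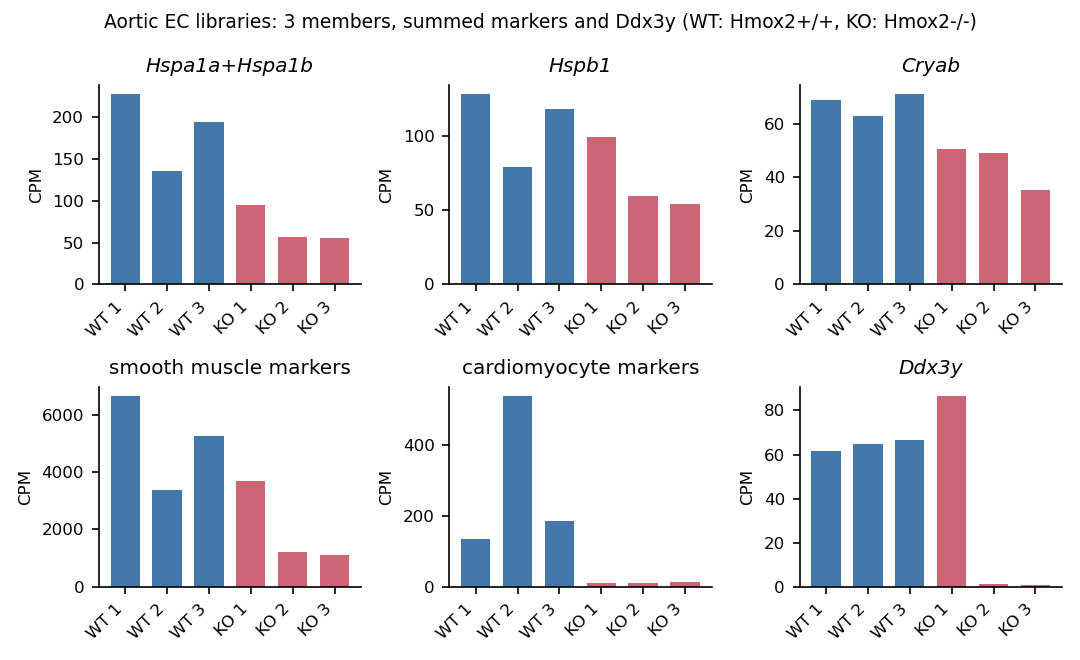
CPM of *Hspa1a* plus *Hspa1b*, *Hspb1*, *Cryab*, the summed smooth muscle and cardiomyocyte markers and *Ddx3y* in the 6 EC libraries, 1 panel per measure with bars from 0 (WT for *Hmox2*+/+ in blue, KO for *Hmox2*-/- in red). *Hmox2*-/- EC libraries 2 and 3 are lowest in the smooth muscle sum (1201 and 1093 CPM) and in *Hspb1* (59.57 and 54.32 CPM), and *Hmox2*-/- EC library 1 lies among the *Hmox2*+/+ libraries for both.

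The levels of the entries were set in order by the deposited TPM, which are divided by transcript length. In *Hmox2*+/+ ECs *Hspa8* led with a mean of 476.7 TPM, and *Hspe1* (248.3), *Hspd1* (184.6), *Hspb1* (157), *Cryab* (101.9), *Hsp90aa1* (101.3), *Hspa1a* plus *Hspa1b* (71.77), *Hsph1* (20.47) and *Dnajb1* (19.51 TPM) followed. In *Hmox2*+/+ heart *Cryab* led with 1259 TPM, followed by *Hspa8* (386.6), *Hspd1* (146.3), *Hspb1* (116.3), *Hspe1* (79.47), *Hsp90aa1* (40.9), *Hsph1* (12.3), *Dnajb1* (7.09) and *Hspa1a* plus *Hspa1b* (3.40 TPM). The inducible HSP70 pair thus stood above *Hsph1* and *Dnajb1* in ECs and last in heart. Ranges over libraries overlapped in *Hmox2*+/+ ECs between *Hspd1* and *Hspb1*, between *Cryab*, *Hsp90aa1* and *Hspa1a* plus *Hspa1b* as neighbours, and between *Hsph1* and *Dnajb1*. In *Hmox2*+/+ heart they overlapped between *Hspd1*, *Hspb1* and *Hspe1* as neighbours and among the last 3.

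Without *Hmox2* the order in ECs was the same but for *Hsp90aa1* (97.85 TPM) and *Cryab* (66.35 TPM), which changed places. In heart *Hspb1* (199.1 TPM) and *Hspd1* (164.4 TPM) did so, with overlapping ranges in *Hmox2*-/- hearts. The levels of *Cryab* differed between tissues also in the transcript. ENSMUST00000216755 held 93.5 to 95.7% of the gene's TPM in every heart and 35.1 to 50.6% in ECs, where ENSMUST00000034562 held 39.6 to 54.9%.

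Genes whose pattern lay closest to that of *Hspa1a* plus *Hspa1b* were sought over the 13 libraries, by the root mean square difference of log2 CPM after each tissue's mean was taken off. Of 13341 genes, *Ccdc106* (0.61), *Tnc* (0.63) and *Fut4* (0.64) were among the closest 5. The root mean square deviation of *Hspa1a* plus *Hspa1b* itself was 0.98.

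The other chaperones of the cytosol were read from lists, beside backgrounds of 10% of all genes higher and 8.07% lower in ECs and of 17.2% higher and 16.2% lower in heart. Of 8 further HSP70 and HSP110 genes, 2 rose in ECs, *Hspa12b*, an endothelial HSP70 relative (log2 fold change 0.81, adjusted p = 0.0101 with edgeR) and *Hspa13* (0.64), and 1 fell in heart, *Hspa12a* (-0.71). Of 15 HSP90 genes and co-chaperones, 3 rose in ECs, *Chordc1* (0.68), *Ppid* (0.66) and *Ptges3* (0.58). In heart 5 rose and 1 fell. Among them were the immunophilins *Fkbp5* (0.70) and *Fkbp4* (0.62, adjusted p = 0.00271 with edgeR) and the constitutive HSP90 gene *Hsp90ab1* (0.34). Of 17 HSP70 co-chaperones, 2 fell in ECs, *Bag2* (-0.82) and *Sgta* (-0.75), and in heart 5 rose and 1 fell, with *Hspbp1* (0.73), *Bag1* (0.56) and *Bag2* (0.46) as the largest. *Bag2*, a nucleotide exchange factor, therefore fell in ECs and rose in heart, and the difference of 1.32 was called (adjusted p = 1.94e-04 with edgeR). Of 14 chaperonin and prefoldin genes, which fold actin and tubulin, 1 rose in ECs (*Vbp1*, 0.65), and 5 rose and 1 fell in heart, led by *Pfdn5* (0.78), *Pfdn1* (0.63) and *Cct3* (0.54). After the length and GC correction *Hspa13*, *Chordc1*, *Ppid*, *Ptges3* and *Vbp1* were not called in ECs, with *Vbp1* at -0.27 (adjusted p = 0.14 with edgeR), and *Hspa12a* and *Bag1* were not called in heart.

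Most of the further small heat shock proteins tested in ECs fell there, and most of those tested in heart rose. Only *Hspb2* was called in both tissues. Of the 4 tested in ECs, 3 fell (background 8.07%), and their list median was -1.38. *Hspb6*, which is expressed in smooth and striated muscle, held 43.4, 45.3 and 40.2 CPM in *Hmox2*+/+ and 15.1, 8.93 and 7.91 in *Hmox2*-/- ECs (log2 fold change -2.01, adjusted p = 0.00376 with edgeR). *Hspb7*, a gene of heart and muscle, held 76.1, 59.8 and 80.2 against 38.4, 18.0 and 15.6 CPM (-1.58, adjusted p = 0.0203), and *Hspb2*, the neighbour of *Cryab*, fell by 1.18 on the log2 scale (adjusted p = 0.0483). In the same libraries 11 of 12 cardiomyocyte, 9 of 9 skeletal muscle and 4 of 8 smooth muscle markers fell, with list medians of -4.91, -5.51 and -1.52, and *Myh4* at 0 in every *Hmox2*-/- EC library. Their part in the drop of the small heat shock proteins was not tested. In heart, 3 of 5 rose (background 17.2%), *Hspb3* (0.68), *Hspb8* (0.59, adjusted p = 0.00315 with edgeR) and *Hspb2* (0.47). After the length and GC correction *Hspb8* was still called, *Hspb3* was not, and *Hspb2* was called in neither tissue and stood at -0.11 in heart.

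Among 14 mitochondrial chaperones and proteases, *Trap1*, the mitochondrial HSP90, was far above the rest. It held 16.7, 17.8 and 16.7 CPM in *Hmox2*+/+ ECs and 138, 151 and 144 in *Hmox2*-/- ECs (log2 fold change 3.08, adjusted p = 1.38e-05 with edgeR). In heart it held 5.06, 6.16, 7.16 and 6.62 against 175.9, 162.2 and 157.9 CPM (4.69, adjusted p = 1.97e-09). It was called in both tissues under all 20 alternatives tried. *Trap1* lies on chromosome 16, as *Hmox2* does, 648.5 kb away. *Pam16* and *Dnaja3*, other members of the list, lie 101.4 and 16.0 kb from *Hmox2*. In ECs *Pam16* changed by -0.55 (adjusted p = 0.176 with edgeR) and *Dnaja3* by -0.43 (adjusted p = 0.140). In heart they changed by 0.71 (adjusted p = 0.169 with edgeR) and 0.25 (adjusted p = 0.0422). With copies summed *Pam16* in heart stood at 0.58 (adjusted p = 0.0186 with edgeR). The part of the position near *Hmox2* was not tested. Of the whole list 2 rose and 3 fell in ECs, the latter being *Clpb* (-0.92), *Lonp1* (-0.75) and *Clpx* (-0.74), and 5 rose and 2 fell in heart, with *Clpp* (0.70) and *Hscb* (0.67) next to *Trap1*. *Lonp1* was not called with copies summed (-0.44, adjusted p = 0.0679 with edgeR) or after the length and GC correction. Only 4.11% of the words of *Lonp1* occur in other genes, so what that sum adds is not a near-identical copy. *Hscb* was not called after the length and GC correction (0.34, adjusted p = 0.0962 with edgeR).

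Of the chaperones of the endoplasmic reticulum 9 of 15 rose in ECs (11 with DESeq2, background 10%), and 0 were lower at an unadjusted p under 0.05. The list's median was 0.53, led by *Dnajb9* (0.83, adjusted p = 0.0135 with edgeR), *Sdf2l1* (0.81) and *Pdia3* (0.65), and with *Hsp90b1* at 0.63. Without *Hmox2*-/- EC library 1, 2 or 3 the number called fell to 2, 1 and 0. In heart 1 rose and 5 fell, led by *Hsp90b1* (-0.62), *Hspa5* (-0.55) and *Pdia6* (-0.52), beside backgrounds of 17.2% and 16.2%. The list's heart median of -0.17 ran from -0.26 to 0.21 over 20 alternatives, with 0 to 7 genes called lower and 0 to 4 higher. The effect of genotype was lower in heart for 8 of 15, with *Hsp90b1*, the HSP90 of this compartment, at a difference of -1.21 (adjusted p = 0.00213 with edgeR). Fibroblast markers, whose cells secrete much protein, summed to 3118 to 5586 CPM in *Hmox2*+/+ and 6844 to 7525 in *Hmox2*-/- ECs, and their part was not tested.

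**Figure D5:**
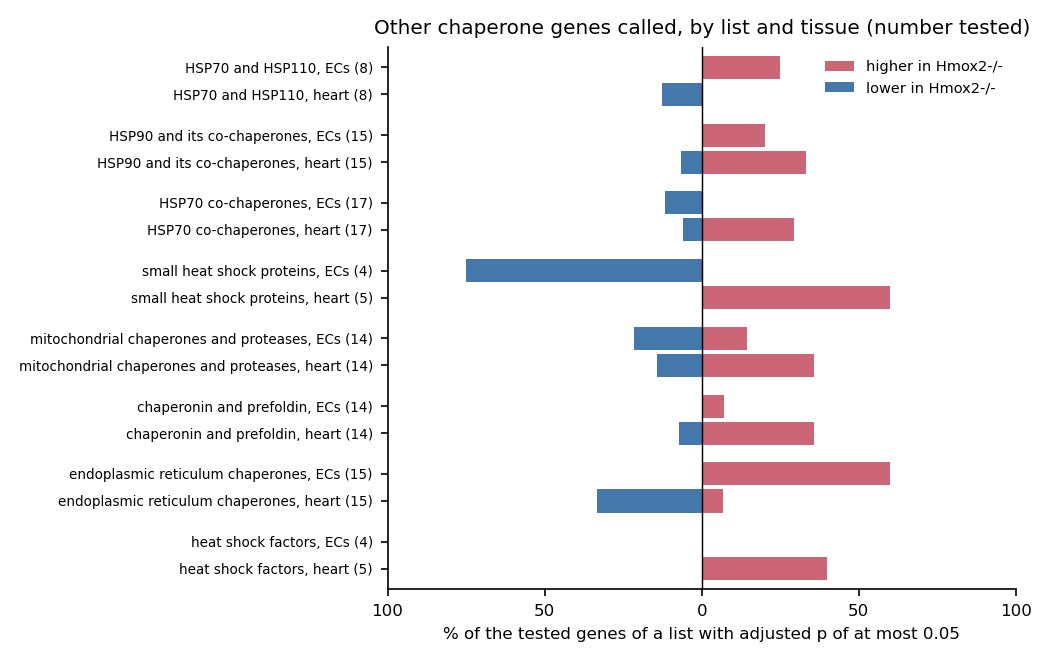
Share of the tested genes of each chaperone list, in percent, that were called higher (red, right of 0) or lower (blue, left of 0) in *Hmox2*-/- at an adjusted p of at most 0.05, with the number tested in parentheses. In ECs 9 of 15 endoplasmic reticulum genes are higher and 3 of 4 small heat shock proteins lower, and in heart 5 of 15 and none of 5 are lower.

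The heat shock factors and their binding proteins followed. Of 4 such genes tested in ECs 0 were called with edgeR, although 1 was higher and 2 were lower at an unadjusted p under 0.05, and DESeq2 also called 0. Of 5 in heart *Hsf1* (0.28, adjusted p = 0.0399 with edgeR) and *Hsbp1*, which encodes a binding protein of HSF1 (0.43), rose. Neither was called after the length and GC correction. Lists of genes that respond to temperature, time of day and handling were read beside them, since heat shock genes move with all of these. In ECs 0 of 2 cold-inducible, 12 clock output and 13 immediate early genes were called with edgeR or DESeq2, and 1 of them, an immediate early gene, was lower at an unadjusted p under 0.05. Whatever the p, 10 of the immediate early genes were lower and 3 higher in *Hmox2*-/- ECs, with a median log2 fold change of -0.57. Their sum was 449.5 to 1182 CPM in *Hmox2*+/+ and 395.3 to 619.1 in *Hmox2*-/- ECs. *Hmox2*+/+ EC library 1 held the 1182. In heart both cold-inducible genes fell, *Rbm3* (-0.53) and *Cirbp* (-0.49). Of the 12 clock output genes 9 fell and 1 rose, with *Ciart* (-2.26), *Per3* (-1.69) and *Dbp* (-1.66) as the largest. Of 12 immediate early genes 6 fell, led by *Fos* (-2.21), *Nr4a1* (-1.32) and *Btg2* (-1.15). The hour of collection was not given in the sources used here, and the part of these groups in the EC and heart values was not tested.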

How the data were processed

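Total RNA from aortic ECs and whole heart was made into oligo-dT directional libraries. The authors quantified reads with kallisto 0.44.0, and the deposited tables hold estimated counts and TPM for 118489 transcripts. The labels name the builds mm10 and GRCh38.p13. The index is not given in the labels. Here 115140 transcripts (97.2%) were matched by ID to GENCODE M39 on GRCm39 and both deposited units were summed per gene. For 115126 of them the listed version was lower than that of M39. Sequences compared here are those of M39 and can differ from those quantified. Estimated counts were rounded and tested with edgeR 4.0.16 (TMM, filterByExpr with a minimum count of 10, quasi-likelihood F-test, Benjamini-Hochberg over all genes) within each tissue, with a tissue by genotype interaction over 13 libraries. A call is an adjusted p of at most 0.05, and an interval has a confidence level of 95%. CPM use the TMM library sizes. Deposited TPM serve to order levels, to compare transcripts of *Hspa8* and *Cryab*, and in the alternatives that name TPM. Exact permutation tests were two-sided on log2 CPM.

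All 10 members and *Hmox2* are named, and per list and tissue up to 3 called genes whose libraries do not overlap, by absolute change. *Clpx*, *Hsp90b1* in ECs, *Ddx3y*, *Gm15459*, *Pam16*, *Dnaja3*, *Kdr* and *Ptprc* fall outside that rule and were chosen after their values were seen. *Cct6a* and *Hspb11* were not analysed here. The others of the 5 genes closest in pattern to *Hspa1a* plus *Hspa1b* are not reported here. Members and lists were chosen with earlier results of these data known. Reads shared between copies are uncertain: 70.1% of the sequence words of *Hspa1a*, 54.8% of *Hspb1*, 53.1% of *Hspd1*, 48.4% of *Hsp90aa1*, 40.5% of *Hspa8* and 30.5% of *Hspe1* occur in transcripts of other genes. For *Hmox2* the share was 73.4%. The fit was tested on simulated data. Depth ran from 7268626 to 31619776 estimated counts a library, and intervals cover the spread between libraries only. Alternatives were another normalization, no filter, DESeq2 1.42.0, limma 3.58.1 on log2(TPM + 1), length-scaled TPM, all libraries in 1 fit, copies summed, a length and GC offset, a replicate block, mitochondrial genes left out, other thresholds and each library left out. The EC fit with *Hmox2*-/- library 1 alone, and copies summed with the offset, were chosen after seeing the data. R 4.3.3, Python 3.11.15, pandas 2.3.3, Biopython 1.88 and matplotlib 3.10.9 were used.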

Additional observations from a re-analysis of the deposited data

Results flagged for a closer look

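The effect of genotype differed between the tissues for 4 of the 9 entries by the interaction term, each with a higher log2 fold change in heart than in ECs. The difference was 1.13 for *Hspb1*, whose own change passed the threshold in neither tissue, and the call was lost in 14 of 26 alternatives. It was 1.06 for *Cryab*, which was lower in *Hmox2*-/- ECs and higher in *Hmox2*-/- heart. It was 0.81 for *Hspe1*, which was called in heart alone, and 0.69 for *Hspa8*, which was called higher in both tissues as listed and in heart alone with its copies summed. Among the 4 *Hmox2*+/+ hearts no library stood far from the others by Dixon's criterion in any of 10 measures, the 9 entries and *Hmox2*, and chance alone meets that criterion in about 1 group of 20.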

How the results depend on the processing

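In ECs 3 entries were called, and 1 was with length-scaled TPM counts, 1 with limma on log2(TPM + 1), 1 with copies summed together with the length and GC offset, 0 at an adjusted p of at most 0.01 and 0 with *Hmox2*-/- EC 1 as the *Hmox2*-/- library alone. Leaving out 1 EC library gave 0 to 3, with 0 without *Hmox2*-/- EC 2 or 3. Over all genes the EC calls fell from 2766 to 1035 without library 2, 638 without library 3 and 49 with library 1 alone. *Hspa1a* plus *Hspa1b* in ECs stayed negative in every alternative. It was not called with all 13 libraries in 1 fit (-1.47), at an adjusted p of at most 0.01 (-1.43) or with *Hmox2*-/- EC 1 alone (-0.97), and leaving out 1 library gave -1.73 to -1.26. *Hspa8* in ECs reversed to -0.0059 with copies summed.

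In heart 3 entries were called, and 6 with limma on log2(TPM + 1), which moved the median of all genes to 0.29, and 1 each with the length and GC offset, with that offset and copies summed, with that offset and the replicate block, and at an adjusted p of at most 0.01. Leaving out 1 heart gave 2 to 4. *Cryab* in heart reversed to -0.0098 with the length and GC offset, -0.0095 with copies summed as well and -0.052 with the replicate block as well. *Hspa1a* plus *Hspa1b* in heart was called in no alternative, and leaving out 1 heart gave -0.50 to 0.89. In the interaction 4 entries were called, 0 with the length and GC offset, 0 with copies summed as well, 2 at an adjusted p of at most 0.01 and 0 with *Hmox2*-/- EC 1 alone, and leaving out 1 library gave 2 to 6. The causes of these changes were not tested.

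The replicate numbers are shared by the genotypes, and the labels do not say whether they pair the libraries. Same-numbered libraries deviated together with correlations of 0.181, 0.040 and 0.0872 in ECs and -0.0328, 0.0794 and 0.0369 in heart. Differently numbered ones had -0.234 to 0.16 in ECs and -0.108 to 0.0795 in heart. So few libraries cannot show whether pairs exist. With the replicate block 3 entries were called in ECs (*Hspa1a* plus *Hspa1b* -1.44) and 2 in heart (*Hspa1a* plus *Hspa1b* -0.07), and with the block and the length and GC offset 2 in ECs (-1.26) and 1 in heart (-0.14). The shallow *Hmox2*+/+ heart 1 limits what could be seen for *Hspa1a* and *Hspa1b*, which rest there on 13 estimated counts.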
